A study of Homo sapiens with 4 samples.

Results

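Interferon-stimulated and antigen presentation genes were followed in U2OS cells, an established human osteosarcoma line, after knockdown of PURB. Its product, PURB, is a protein that binds single-stranded DNA and RNA. The 45 genes were taken by symbol from a table of 39519 genes, and all 45 had a row. They fell into 31 antiviral genes, 4 STAT/IRF transcription factors and 10 genes of MHC class I presentation. The sh-PURB cells carried an inducible short hairpin RNA against PURB and received doxycycline at 5.0 µg/ml for 72 h (2 libraries). The sh-NC cells received DMSO and were sequenced at the same time point (2 libraries). Doxycycline was given to the sh-PURB cells and DMSO to the sh-NC cells, so hairpin and doxycycline cannot be told apart. Separate cultures are not named in the labels, nor is the hairpin of each sh-PURB library, so p-values cover library-to-library spread that may be only technical.

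Type I interferons signal through a receptor at the cell surface and Janus kinases to a complex of STAT proteins with IRF9. That complex binds a DNA motif, the interferon-stimulated response element (ISRE), and switches on genes that block virus entry, sense viral RNA, degrade RNA or tag proteins with ISG15. Interferons also raise MHC class I, which shows peptides to T cells: the proteasome cuts proteins, TAP transports the peptides into the endoplasmic reticulum, and a heavy chain paired with beta-2-microglobulin carries them to the surface.

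Libraries were made from total RNA after removal of ribosomal RNA, and values are TPM, the share of a library's transcripts that a gene takes after scaling for length. Read counts cannot be recovered from TPM, which leaves the depth of every value unknown. The columns summed to 977570 to 981061, with 13298 to 14207 genes at 1 TPM or more. A large part of TPM, 65.2% and 63.2% in sh-PURB and 62.2% and 59.4% in sh-NC, fell to 5 noncoding RNAs (RPPH1, RMRP, RN7SK, RN7SL2 and RN7SL1). PURB was at 2.46 and 2.69 TPM in sh-PURB, against 5.29 and 6.55 TPM in sh-NC, and its limma adjusted p was 0.102. Of 7 osteoblast markers, RUNX2 and COL1A1 passed the filter on low values, IBSP was listed at 0 in every library, and SP7 was at 0.0346 TPM or lower. The 7 osteoblast markers summed to 11.8 and 24.9 TPM in sh-PURB and to 16.5 and 44.1 TPM in sh-NC. Of 10 blood and immune cell markers, 2 passed (PTPRC at 0.651 to 1.63 TPM and CD68 at 2.21 to 4.67 TPM), and CD2 was listed at 0 everywhere. Summed, these 10 markers were at 5.39 and 3.57 TPM in sh-PURB and at 4.17 and 9.25 TPM in sh-NC, and their part in any result below was not tested. In bulk RNA, fewer cells of a type and less RNA per cell cannot be told apart.

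Because the ISRE is the shared control element of this pathway, promoters of members on which the results turn are shown first. RefSeq windows of 250 bases before the annotated start (GRCh38.p14) were matched by symbol for 36 of the 45 members. No window was used for IFIT2, MX2, OAS2, OASL, IRF7, USP18, IFITM2, TRIM22 and HLA-E. The ISRE letters searched were GAAA, any 2 bases and GAAA again, on either strand, so that a match on the opposite strand reads TTTC, any 2 bases and TTTC. They occurred in a window of 25 of the 36 genes (69.4%), against 3.71% of all 27305 genes with a window. By group the motif occurred for 20 of 24 antiviral genes, 5 of 9 presentation genes and 0 of 3 factors. The motif TTCNNNGAA, the letters of a gamma-interferon activated site and its own reverse complement, occurred for 12 of 36 members (33.3%), against 8.09% of all genes. In 4 members a match to one motif overlapped a match to the other, BST2 among them. A match is a description of letters and does not show binding. The 6 windows below belong to members that were higher in sh-PURB (IFITM1, IFITM3, TAP1) or lower (BST2, IFIT1, B2M), each 5′ to 3′ on the gene's own strand, with the ISRE letters in capitals.
IFITM1 (chr11:313790-314039, plus strand): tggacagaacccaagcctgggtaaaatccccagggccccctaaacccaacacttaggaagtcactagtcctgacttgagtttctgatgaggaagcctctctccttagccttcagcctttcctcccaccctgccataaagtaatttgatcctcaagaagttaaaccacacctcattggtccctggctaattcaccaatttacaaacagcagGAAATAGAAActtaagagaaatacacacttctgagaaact
IFITM3 (chr11:320861-321110, minus strand): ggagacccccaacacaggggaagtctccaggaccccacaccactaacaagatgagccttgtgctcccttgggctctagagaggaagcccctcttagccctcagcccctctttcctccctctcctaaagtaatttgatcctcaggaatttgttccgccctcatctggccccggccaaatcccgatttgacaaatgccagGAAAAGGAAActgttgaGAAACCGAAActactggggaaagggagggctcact
TAP1 (chr6:32853705-32853954, minus strand): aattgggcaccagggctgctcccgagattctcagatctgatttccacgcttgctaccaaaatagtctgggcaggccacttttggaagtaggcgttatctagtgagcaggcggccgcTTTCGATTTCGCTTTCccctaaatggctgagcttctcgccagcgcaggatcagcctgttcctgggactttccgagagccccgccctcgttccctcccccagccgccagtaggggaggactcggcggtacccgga
BST2 (chr19:17405631-17405880, minus strand): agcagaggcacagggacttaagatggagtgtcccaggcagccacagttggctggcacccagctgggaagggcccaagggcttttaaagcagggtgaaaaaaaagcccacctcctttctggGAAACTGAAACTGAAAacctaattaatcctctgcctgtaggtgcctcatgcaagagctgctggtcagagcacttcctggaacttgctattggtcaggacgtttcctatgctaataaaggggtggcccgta
IFIT1 (chr10:89392373-89392622, plus strand): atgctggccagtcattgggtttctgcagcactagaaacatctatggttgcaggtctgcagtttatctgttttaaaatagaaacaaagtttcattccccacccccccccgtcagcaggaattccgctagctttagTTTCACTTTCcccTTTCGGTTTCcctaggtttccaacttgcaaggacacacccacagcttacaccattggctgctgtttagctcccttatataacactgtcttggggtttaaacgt
B2M (chr15:44711267-44711516, plus strand): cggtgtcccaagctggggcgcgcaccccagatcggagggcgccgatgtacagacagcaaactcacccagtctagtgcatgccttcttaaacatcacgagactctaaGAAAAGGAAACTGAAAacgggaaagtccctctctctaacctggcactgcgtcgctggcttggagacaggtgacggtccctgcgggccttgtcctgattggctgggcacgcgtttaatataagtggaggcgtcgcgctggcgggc
The match nearest to the start began 40 bases before it in IFITM1, 35 in IFITM3, 128 in TAP1, 124 in BST2, 103 in IFIT1 and 138 in B2M. A second TAP1 window (chr6:32852762-32853011) held 0 ISRE matches and is not shown. Genes with these letters were found both among members that were higher and among members that were lower in sh-PURB. All 6 windows shown hold a match, so they do not give the share of matches in either direction.

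Of the 45 members, 36 reached 1 TPM in at least 2 libraries and were tested. None of the 36 reached that level through 1 group alone. At an adjusted p under 0.05 in limma over all 14269 tested genes, 0 members were called higher and 0 lower, where the background was 0.287% of genes called in either direction, 0.0841% higher and 0.203% lower. With TPM recomputed on the table less its mitochondrial and dominant genes, those 5 RNAs among them, the calls over all genes were 99 higher and 77 lower in place of 12 and 29. With no adjustment, 3 members were higher and 9 lower at a limma p under 0.05, against a background of 5.77% higher and 9.53% lower. The groups did not overlap in 24 members: sh-PURB was the higher group in 8 of the 36 and the lower in 16, where the background was 18.6% higher and 29.3% lower. The median difference in log2(TPM + 1), sh-PURB minus sh-NC, was -0.20 over the 36 members, with 10 above 0 and 26 below. Rescaling turned the sign of 4 members, ISG20, XAF1, USP18 and DDX60, and with recomputed TPM 14 of the 36 lay above 0. Over all tested genes the median was -0.057, with 5935 above 0 and 8334 below.

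**Figure D1:**
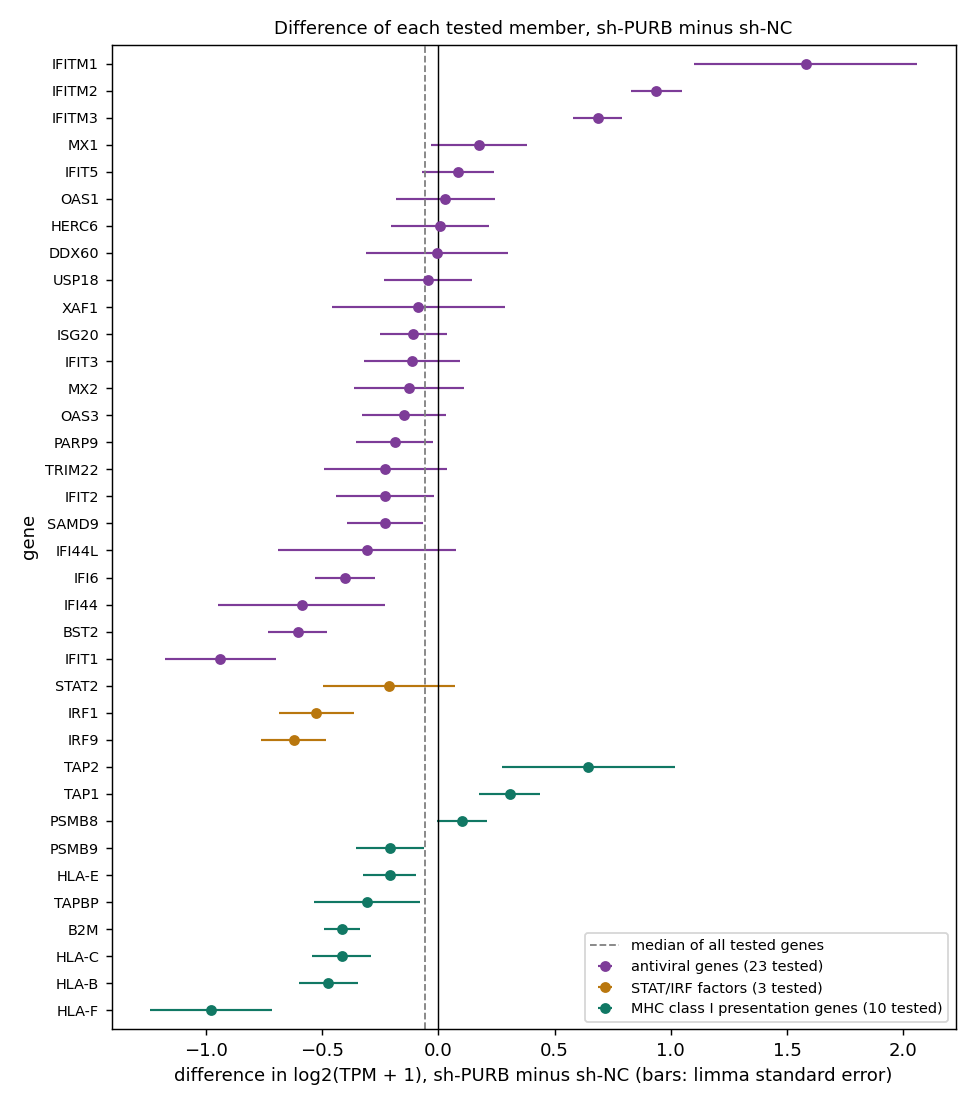
Difference in log2(TPM + 1), sh-PURB minus sh-NC, for the 36 tested members, coloured by group, with limma standard errors as bars (2 libraries each) and the median of all tested genes as a dashed line. IFITM1, IFITM2 and IFITM3 stand at the top of the antiviral genes, and HLA-F has the lowest difference of the presentation genes.

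The antiviral genes differed in both directions. The membrane proteins IFITM1, IFITM2 and IFITM3 were higher in sh-PURB, while IFIT1, BST2 and IFI6 were lower. Of 23 tested antiviral genes, 7 lay above 0 and 16 below, with a median difference of -0.11 on the log2 scale. The groups were apart with sh-PURB higher in 5 and with sh-PURB lower in 8, and overlapped in the remaining 10. These counts lie near the background of all tested genes, of which 18.6% were higher and 29.3% lower with no overlap. The median without sh-PURB replicate 1 was 0.049, so its sign rests on that library.

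IFITM proteins sit in cell membranes and hinder the fusion of enveloped viruses. IFITM2 stood at 43.4 and 45.1 TPM in sh-PURB, against 23.8 and 21.5 TPM in sh-NC. The groups were far apart beside the spread within each, at 44.3 ± 1.21 TPM in sh-PURB and 22.7 ± 1.61 TPM in sh-NC (SD, n = 2 each), a ratio of 1.95. Its difference was 0.94 on the log2(TPM + 1) scale (SE 0.11). The limma adjusted p was 0.0552, just above the threshold, and IFITM2 ranked 103 of 14269 genes by unadjusted p. An exact two-sided permutation test over the 4 libraries gave p = 0.333, the smallest that this design allows.

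IFITM3, best known for restricting influenza virus, stood at 70.9 and 79.1 TPM in sh-PURB, against 45.5 and 46.9 TPM in sh-NC. All of its sh-PURB values were above all sh-NC values, with a ratio of 1.62, a difference of 0.69 (SE 0.10) and a limma adjusted p of 0.0831. IFITM1, described in full after its values were seen, stood at 18.0 and 35.2 TPM in sh-PURB, against 11.9 and 4.95 TPM in sh-NC. It had the largest difference of the 36 tested members, 1.58 (SE 0.48), but also the widest spread among the IFITM genes, and its limma adjusted p was 0.235. Refitted on protein-coding genes alone, IFITM2 and IFITM3 passed the limma threshold with adjusted p-values of 0.00937 and 0.0167, and were the only members to do so, where the background of that fit was 1.33% of genes called higher and 2.15% lower. Across all settings tried, the limma adjusted p ran from 0.00937 to 0.293 for IFITM2 and from 0.0167 to 0.306 for IFITM3, and both genes were higher in sh-PURB under every setting.

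The 3 IFITM genes lie side by side on chromosome 11 (GRCh38, GENCODE annotation): IFITM2 at 307631 to 315272, IFITM1 within that span at 313506 to 315272, and IFITM3 at 319669 to 327537 on the minus strand. They share much of their sequence: 35.3% of the 31-base words in IFITM1 transcripts, 45.2% of those in IFITM2 and 36.4% of those in IFITM3 also occur in transcripts of another gene. How reads were split among the 3 genes is therefore uncertain. Summing the 3 limits the effect of such a split but does not remove it, because TPM scales reads by transcript length. The sum was 132 and 160 TPM in sh-PURB, against 81.3 and 73.3 TPM in sh-NC. The sum was again higher in both sh-PURB libraries, with a ratio of 1.89.

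BST2, or tetherin, holds budding virus particles at the cell surface. It went the other way from the IFITM genes, at 12.3 and 11.0 TPM in sh-PURB and 18.8 and 17.6 TPM in sh-NC. The groups did not overlap, and its difference was -0.60 (SE 0.13, limma adjusted p = 0.131).

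IFIT proteins bind viral RNA and stop its translation, and their genes lie in a cluster on chromosome 10. IFIT1 stood at 2.97 and 4.91 TPM in sh-PURB, against 7.61 and 8.99 TPM in sh-NC. It was 2.11-fold lower with no overlap of the groups, a difference of -0.94 (SE 0.24, limma adjusted p = 0.178). IFIT2 was at 1.14 and 1.08 TPM in sh-PURB and at 1.28 and 1.68 TPM in sh-NC. IFIT3 was at 1.03 and 1.08 TPM in sh-PURB and at 1.13 and 1.32 TPM in sh-NC. IFIT5 was at 4.27 and 4.05 TPM in sh-PURB and at 3.70 and 4.03 TPM in sh-NC, so 3 of the 4 family members lay lower and IFIT5 marginally higher. The limma adjusted p-values of IFIT2, IFIT3 and IFIT5 lay between 0.673 and 0.847.

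The OAS enzymes make 2′-5′ oligoadenylates, which activate an RNA-cutting enzyme, and ISG20 is an exonuclease. OAS1 was at 2.19 and 1.92 TPM in sh-PURB and at 2.37 and 1.65 TPM in sh-NC. OAS3 was at 1.82 and 1.86 TPM in sh-PURB, under the 2.25 and 2.05 TPM of sh-NC. ISG20 was at 5.17 and 5.08 TPM in sh-PURB and at 5.87 and 5.34 TPM in sh-NC. Their differences lay between -0.15 and 0.031 on the log2 scale, and that of ISG20 was 0.025 with recomputed TPM.

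The dynamin-like GTPase MX1 was at 1.36 and 1.51 TPM in sh-PURB, above the 1.28 and 1.03 TPM of sh-NC, and its relative MX2 was at 0.865 and 1.44 TPM in sh-PURB and at 1.32 and 1.34 TPM in sh-NC. ISG15 is a ubiquitin-like tag, and USP18 removes it. USP18 was at 1.71 and 2.08 TPM in sh-PURB and at 2.05 and 1.92 TPM in sh-NC, and 30.8% of its 31-base words occur in other genes, most often USP41. HERC6, of the HERC ubiquitin ligase family, was at 1.83 and 2.01 TPM in sh-PURB and at 1.58 and 2.26 TPM in sh-NC. The groups overlapped for MX2, USP18 and HERC6.

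IFI6, a mitochondrial and endoplasmic reticulum membrane protein, was at 10.4 and 11.9 TPM in sh-PURB, under the 14.7 and 15.3 TPM of sh-NC (limma adjusted p = 0.257). SAMD9, a restriction factor of poxviruses, was at 3.72 and 3.43 TPM in sh-PURB and at 4.69 and 4.05 TPM in sh-NC. These were the 2 of the 7 remaining interferon-induced genes tested whose groups did not overlap, and all 7 lay below 0 in the fit over all libraries. The background of genes lower with no overlap was 29.3%. XAF1 lay above 0 after quantile normalization or with recomputed TPM. XAF1, IFI44L and TRIM22 did so without sh-PURB replicate 1, and XAF1 and IFI44L without sh-NC replicate 2.
PARP9, a macrodomain protein, was at 6.02 and 7.42 TPM in sh-PURB and at 7.22 and 8.31 TPM in sh-NC. TRIM22, a ubiquitin ligase, was at 3.91 and 6.98 TPM in sh-PURB and at 6.13 and 6.53 TPM in sh-NC. In both genes sh-PURB replicate 1 was the lowest library.

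IFI44 was at 1.34 and 2.57 TPM in sh-PURB and at 2.31 and 4.70 TPM in sh-NC. Its neighbour IFI44L was at 1.36 and 2.89 TPM in sh-PURB and at 1.85 and 3.94 TPM in sh-NC. XAF1, a pro-apoptotic partner of XIAP, was at 1.11 and 2.52 TPM in sh-PURB and at 1.27 and 2.68 TPM in sh-NC. In IFI44, IFI44L and XAF1, sh-PURB replicate 2 and sh-NC replicate 2 were the higher libraries of their groups. The RNA helicase DDX60 showed the same, at 1.49 and 2.39 TPM in sh-PURB and at 1.34 and 2.64 TPM in sh-NC.

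**Figure D2:**
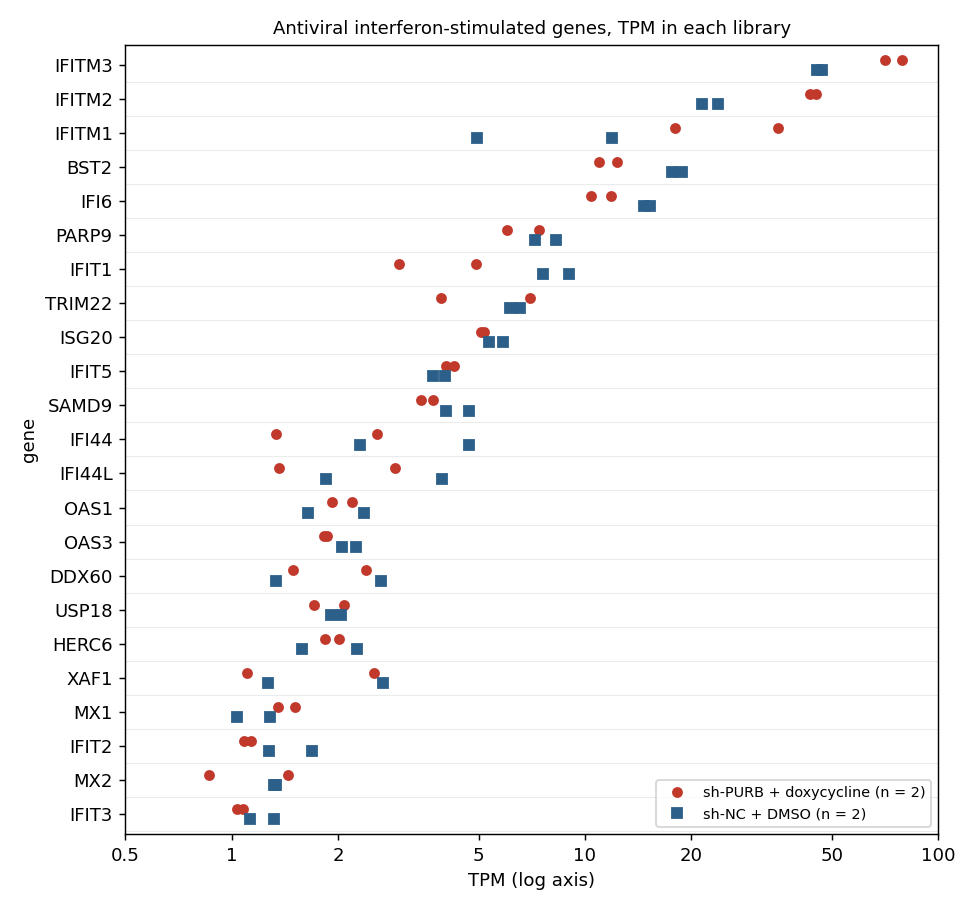
TPM on a log axis of the 23 tested antiviral genes in each sh-PURB library (circles) and each sh-NC library (squares), ordered by mean. The IFITM genes have both sh-PURB points to the right of both sh-NC points, and BST2, IFI6 and IFIT1 have them to the left.

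The 9 members under the filter ranged from 0 to 1.42 TPM. ISG15 was at 0.0938 and 0 TPM in sh-PURB and at 0.179 and 0.313 TPM in sh-NC. OASL was at 0.304 and 0.296 TPM in sh-PURB and at 0.751 and 0.716 TPM in sh-NC. IFIH1, which encodes the double-stranded RNA sensor MDA5, was at 0.459 and 0.113 TPM in sh-PURB and at 0.512 and 0.298 TPM in sh-NC. These classical interferon targets were thus close to 0 in both groups. IFI27 was at 0.944 and 0.624 TPM in sh-PURB and at 1.42 and 0.620 TPM in sh-NC. OAS2, IFI35, HERC5 and EPSTI1 were at 0.308 TPM or lower in every library. IRF7, the factor that amplifies interferon production, was listed at 0 in 3 libraries and at 0.00931 TPM in sh-PURB replicate 1.

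The 3 tested transcription factors had differences below 0, with a median of -0.52. IRF9 and IRF1 were lower in sh-PURB with no overlap of the groups, while the groups overlapped for STAT2. IRF9 is the DNA-binding part of the complex that reads the ISRE, and lies on chromosome 14 at 24161053 to 24166565. It was at 5.91 and 5.71 TPM in sh-PURB, against 10.0 and 8.94 TPM in sh-NC. Its level was 5.81 ± 0.142 TPM in sh-PURB and 9.49 ± 0.778 TPM in sh-NC (SD, n = 2 each), a difference of -0.62 (SE 0.14, limma adjusted p = 0.148). Of the 31-base words of IRF9 transcripts, 49.5% also occur in other annotated genes, most often AL136295.5, so part of its reads cannot be assigned with certainty.

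IRF1, an activator of MHC class I and of many antiviral genes, was at 3.85 and 4.68 TPM in sh-PURB, against 6.88 and 6.23 TPM in sh-NC. The groups did not overlap, and the difference was -0.52 (SE 0.16, limma adjusted p = 0.241). Of its 31-base words, 27.8% occur in transcripts of the opposite strand, such as those of C5orf56, and no source used here gives the strand setting. The same limit holds for 36.6% of the words of XAF1, 23.2% of those of IFITM3, 19.1% of those of PSMB8 and 12.2% of those of TAP1. STAT2, the partner of IRF9, was at 11.5 and 20.3 TPM in sh-PURB and at 16.3 and 19.7 TPM in sh-NC. Its groups overlapped, with a difference of -0.21 (SE 0.28, limma adjusted p = 0.781) that became 0.18 without sh-PURB replicate 1.

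The class I chains were lower in sh-PURB and the peptide transporter genes TAP1 and TAP2 higher. All 5 measured chain genes (B2M, HLA-B, HLA-C, HLA-E and HLA-F) were lower in sh-PURB with no overlap of the groups. Of the 10 presentation genes, all tested, 7 lay below 0 and 3 above, with a median difference of -0.26. In 6 the groups did not overlap with sh-PURB lower, in 3 they did not overlap with sh-PURB higher, and 4 were lower at an unadjusted limma p under 0.05. Over all tested genes, 29.3% were lower and 18.6% higher with no overlap, and 9.53% were lower at that p.

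B2M, which encodes beta-2-microglobulin, the light chain common to all class I molecules, had the highest TPM of the 45 members. It was at 285 and 290 TPM in sh-PURB, against 381 and 385 TPM in sh-NC. Replicates of each group lay close together, at 287 ± 3.35 TPM in sh-PURB and 383 ± 2.72 TPM in sh-NC (SD, n = 2 each). The difference was -0.41 (SE 0.08), 1.33-fold lower, with a limma adjusted p of 0.106.

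HLA-B and HLA-C encode classical heavy chains. HLA-B was at 97.6 and 121 TPM in sh-PURB, against 151 and 151 TPM in sh-NC, a difference of -0.47 (SE 0.13, limma adjusted p = 0.196). HLA-C was at 39.7 and 48.0 TPM in sh-PURB, against 58.2 and 58.9 TPM in sh-NC, a difference of -0.42 (SE 0.13, limma adjusted p = 0.235). In both genes sh-PURB replicate 1 was the lowest library and the sh-NC libraries nearly coincided.
HLA-F, a nonclassical chain, was at 4.38 and 7.86 TPM in sh-PURB, against 13.0 and 12.2 TPM in sh-NC. It was 2.06-fold lower, a difference of -0.98 (SE 0.26, limma adjusted p = 0.196), the lowest of the 36 tested members. HLA-E, whose product is read by receptors of natural killer cells, was at 20.5 and 19.1 TPM in sh-PURB and at 22.3 and 23.8 TPM in sh-NC.

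The HLA genes share sequence, with 3.62% (HLA-F) to 15.9% (HLA-C) of their 31-base words found in other genes on the same strand, and 23.6% of those of HLA-F and 16.4% of those of HLA-B found on the opposite strand. The sum of HLA-B, HLA-C, HLA-E and HLA-F was 162 and 196 TPM in sh-PURB, against 244 and 246 TPM in sh-NC, or 72.9% of the sh-NC mean. B2M divided by that sum was 1.76 and 1.48 in sh-PURB and 1.56 and 1.56 in sh-NC. The ratio of light to heavy chain RNA in sh-PURB thus lay on both sides of the sh-NC values.

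**Figure D3:**
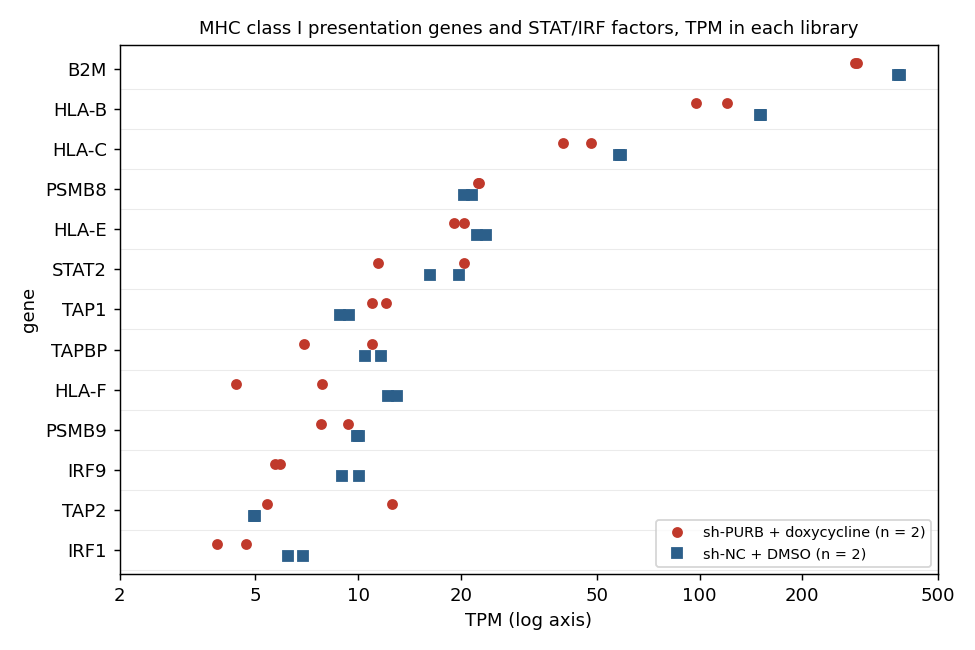
TPM on a log axis of the 10 MHC class I presentation genes and the 3 tested STAT/IRF factors in each sh-PURB library (circles) and each sh-NC library (squares), ordered by mean. B2M, the HLA chains, IRF1 and IRF9 have both sh-PURB points to the left of both sh-NC points, and TAP1, TAP2 and PSMB8 to the right.

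TAP1 and TAP2 encode the paired subunits of the peptide transporter and are described in full after their values were seen. TAP1 was at 11.0 and 12.1 TPM in sh-PURB, above the 9.39 and 8.85 TPM of sh-NC, a difference of 0.31 (SE 0.13, limma adjusted p = 0.360). TAP2 was at 12.6 and 5.40 TPM in sh-PURB and at 4.94 and 4.98 TPM in sh-NC. Its difference of 0.64 (SE 0.37, limma adjusted p = 0.484) rested on sh-PURB replicate 1 and became 0.10 without it, and 31.7% of its 31-base words occur in other annotated genes. Tapasin (TAPBP), which bridges class I to TAP, was at 6.93 and 10.9 TPM in sh-PURB and at 10.5 and 11.7 TPM in sh-NC, with overlapping groups.

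PSMB8 and PSMB9 encode catalytic subunits of the immunoproteasome, which take the places of PSMB5 and PSMB6 in the constitutive form. PSMB8 was at 22.5 TPM in both sh-PURB libraries, above the 21.5 and 20.4 TPM of sh-NC. PSMB9 was at 7.77 and 9.34 TPM in sh-PURB, under the 9.94 and 10.1 TPM of sh-NC. Neither approached the limma threshold (adjusted p = 0.720 and 0.567). PSMB8 divided by PSMB5 was 0.480 and 0.561 in sh-PURB and 0.602 and 0.624 in sh-NC. PSMB9 divided by PSMB6 was 0.145 and 0.214 in sh-PURB and 0.234 and 0.277 in sh-NC. For both ratios the sh-PURB values were the lower ones, with no overlap, though PSMB8 itself was higher in sh-PURB. The denominators were higher in sh-PURB too. PSMB5 was at 46.8 and 40.2 TPM in sh-PURB, against 35.7 and 32.7 TPM in sh-NC. PSMB6 was at 53.7 and 43.6 TPM in sh-PURB, against 42.5 and 36.2 TPM in sh-NC. No background over all genes was computed for such ratios. The ratio for the remaining immunoproteasome subunit, PSMB10 divided by PSMB7, was 0.301 and 0.292 in sh-PURB and 0.337 and 0.253 in sh-NC, and its groups overlapped. Of the 10 presentation genes, 9 lie on chromosome 6 and B2M alone on chromosome 15.

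Other genes of the pathway were taken from lists, and those given with library values had the smallest unadjusted p of their list. Among 17 interferons, receptors and Janus kinases, 8 were tested, 1 lay above 0 and 7 below, and 0 were called by limma. With no adjustment, 0 were higher and 2 lower at a limma p under 0.05. For this list and those that follow, the background at that p was 5.77% higher and 9.53% lower. Of the 8 interferon genes in the list, 7 were listed at 0 in every library and IFNE was at 0.0805 TPM or lower. IFNGR2, the signalling chain of the interferon-gamma receptor, was at 22.9 and 21.8 TPM in sh-PURB, against 58.4 and 49.0 TPM in sh-NC. It had a difference of -1.22 (SE 0.13) and a limma adjusted p of 0.0524, which ran from 0.00756 to 0.289 over the settings tried. The ligand-binding chain IFNGR1 was at 7.90 and 8.42 TPM in sh-PURB, under the 11.2 and 11.2 TPM of sh-NC (limma adjusted p = 0.236). The type I receptor chain IFNAR1 was at 3.15 and 2.58 TPM in sh-PURB and at 4.44 and 3.56 TPM in sh-NC (limma adjusted p = 0.426).

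Among 17 nucleic acid sensors and relay genes, 13 were tested, 3 above 0 and 10 below, with a median of -0.12 and 0 calls by limma (unadjusted p under 0.05 for 0 higher and 2 lower). STING1, the adaptor of cytosolic DNA sensing, was at 2.68 and 2.76 TPM in sh-PURB and at 3.88 and 4.59 TPM in sh-NC. IRF3, which switches on interferon-beta, was at 13.3 and 17.1 TPM in sh-PURB and at 20.5 and 21.3 TPM in sh-NC. ZBP1, a sensor of left-handed nucleic acids, was at 0.162 and 0.910 TPM in sh-PURB and at 1.14 and 1.92 TPM in sh-NC. In each of the 3 the groups did not overlap, with sh-PURB lower, and their limma adjusted p-values were 0.278 to 0.390. ZBP1 passed the filter on low values through sh-NC alone, which favours a lower value in sh-PURB.

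Of 10 brakes and ISG15 conjugation genes 9 were tested, 3 above 0 and 6 below, and 0 were called by limma (unadjusted p under 0.05 for 1 higher and 1 lower). UBE2L6, the conjugating enzyme for ISG15, was at 11.2 and 16.0 TPM in sh-PURB and at 22.0 and 20.5 TPM in sh-NC. SOCS3, a feedback inhibitor of cytokine signalling, was at 6.91 and 11.3 TPM in sh-PURB and at 12.7 and 14.9 TPM in sh-NC. The phosphatase PTPN11 was at 36.3 and 33.4 TPM in sh-PURB, above the 26.4 and 29.5 TPM of sh-NC.

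A list of 38 further interferon-stimulated genes had 28 tested members, 10 above 0 and 18 below, with a median of -0.070, beside -0.057 for all tested genes. In this list 0 were called by limma, and an unadjusted p under 0.05 was reached by 0 higher and 2 lower. LY6E was at 114 and 108 TPM in sh-PURB, against 144 and 145 TPM in sh-NC (limma adjusted p = 0.152). LGALS3BP, a secreted glycoprotein, was at 41.2 and 49.8 TPM in sh-PURB and at 59.8 and 60.6 TPM in sh-NC. DDX60L was at 6.73 and 7.74 TPM in sh-PURB, above the 6.15 and 4.79 TPM of sh-NC.

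Of 20 genes for class I loading, the proteasome and class I regulation, 16 were tested, with 10 above 0 and 6 below, a median of 0.09 and 0 calls by limma (unadjusted p under 0.05 for 2 higher and 3 lower). PSME1, a subunit of the proteasome activator, was at 41.6 and 44.0 TPM in sh-PURB, under the 56.1 and 58.6 TPM of sh-NC (limma adjusted p = 0.159). The chaperone calreticulin (CALR) was at 154 and 156 TPM in sh-PURB and at 214 and 184 TPM in sh-NC (limma adjusted p = 0.230). MICA, a stress-induced ligand of the killer cell receptor NKG2D, was at 18.6 and 13.1 TPM in sh-PURB, above the 8.79 and 9.43 TPM of sh-NC (limma adjusted p = 0.198).

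**Figure D4:**
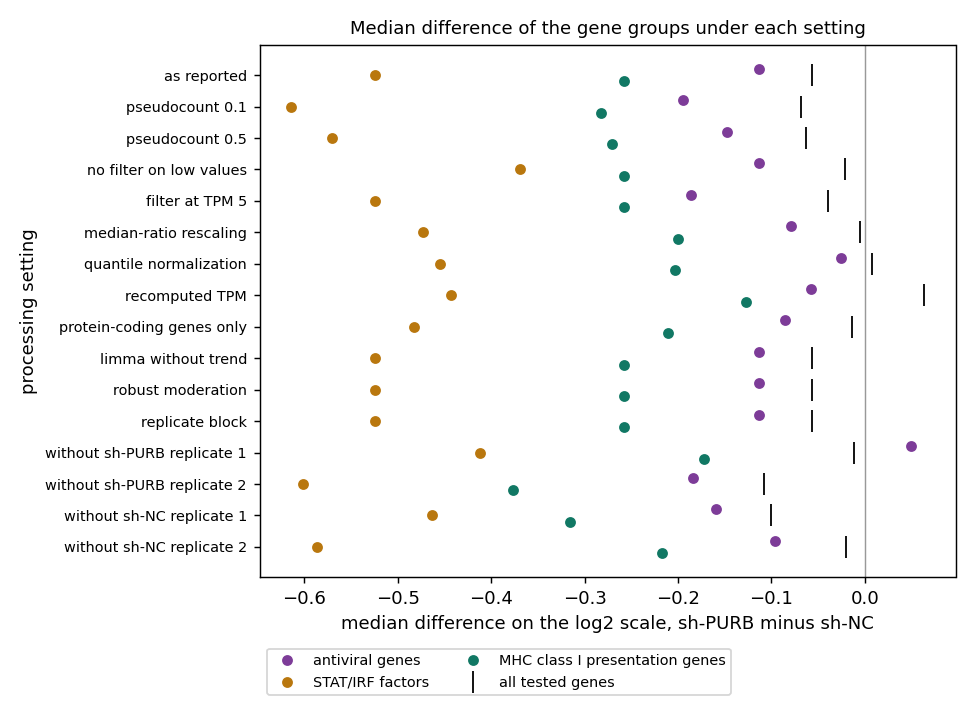
Median difference on the log2 scale, sh-PURB minus sh-NC, of the tested antiviral genes, STAT/IRF factors and presentation genes under each processing setting, with the median of all tested genes as a tick. The factors and the presentation genes stay below 0 throughout, and the antiviral median is above 0 without sh-PURB replicate 1.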

How the data were processed

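Total RNA of U2OS cells was extracted with TRIzol, depleted of ribosomal RNA and sequenced from TruSeq libraries, per the labels' protocols. The authors deposited TPM per gene symbol, and the table of all libraries held the same values as the 4 single tables. Per the submitters' processing notes, the tools were kallisto 0.44.0, bcl2fastq, DESeq2 and sleuth and the builds were GRCm38 (mouse) and GRCh38 (human), with roles not stated. Annotation release, strand setting and the part of the mouse build are not given in these sources. kallisto, where used for the levels, divides reads among transcripts that share sequence. A row with a blank name (0.921% to 1.66% of a library) was left out.

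Groups came from the titles. Genes at 1 TPM or more in at least 2 libraries (14269) were compared as log2(TPM + 1), a scale that understates the change of low genes, in limma 3.58.1 under R 4.3.3. The fit used an intensity trend, 2 residual and 2.92 prior degrees of freedom, and a threshold of 0.05 after adjusting p-values by Benjamini and Hochberg across the 14269 genes. Tested on 10 simulated sets with known changes, the fit called 15.7% of 2-fold and 79.2% of 4-fold changes. Of its calls there, 4.66% were false. Most 2-fold changes were thus missed, which limits what 0 calls can show. Ratios are of mean TPM. The members and lists were chosen with earlier results of these data known, so lists are described and not tested. Full statistics went to the 4 members of each group with the smallest unadjusted p, and up to 3 genes of each further list were named by the same measure. Those lists were interferons, receptors and kinases; sensors; brakes and ISG15 conjugation; further interferon-stimulated genes; class I loading; and MHC class II. From the osteoblast markers, 1 gene is not reported here.

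Positions and transcript sequences came from GENCODE 29 (GRCh38), where 36727 symbols matched a GENCODE name, 2715 matched through a table of present and former symbols, and 77 did not match. Words of 31 bases were compared over all its transcripts. Promoter sequences came from RefSeq (GRCh38.p14). Figures were drawn with matplotlib 3.10.9. Alternatives were quantile normalization, median-ratio rescaling, TPM recomputed after dropping mitochondrial genes and those above 1% of a library (42 genes), a refit on protein-coding genes set to equal totals, a filter at TPM 5 or none, a pseudocount of 0.1 or 0.5, limma without trend or with robust moderation, the replicate number as a block, and leaving out each library.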

Additional observations from a re-analysis of the deposited data

How the results depend on the processing

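The count of members called higher was 0 as reported, 1 with a filter at TPM 5 or with robust moderation (IFITM2), and 2 with recomputed TPM or with protein-coding genes only (IFITM2 and IFITM3). The count called lower was 0 under every setting tried. Over all genes the calls were 12 higher and 29 lower as reported. They were 31 and 90 with a filter at TPM 5, 27 and 46 after median-ratio rescaling, 45 and 73 after quantile normalization, 99 and 77 with recomputed TPM, 159 and 256 with protein-coding genes only, and 43 and 82 with robust moderation. A pseudocount of 0.1, no filter, no trend, or leaving out any library gave 0 calls in both directions, and the fits without a library have 1 residual degree of freedom. The antiviral median moved to -0.026 after quantile normalization, and ran from -0.18 to 0.049 when single libraries were left out, above 0 only without sh-PURB replicate 1. The median of the STAT/IRF factors was -0.37 with no filter, which adds IRF7, and ran from -0.60 to -0.41 without single libraries. The presentation median was -0.13 with recomputed TPM and ran from -0.38 to -0.17 without single libraries. Recomputed TPM gave a median of all genes of 0.063 in place of -0.057, so relative to all genes the presentation median was -0.19 in place of -0.20. STAT2 turned to 0.18 without sh-PURB replicate 1. Of the other named genes, IFNGR2 passed the limma threshold with a filter at TPM 5, quantile normalization, protein-coding genes only, robust moderation and the replicate block. With the replicate block the calls were 41 higher and 77 lower over all genes, 0 members were called, and the limma adjusted p of IFNGR2 was 0.0450. The replicate block fit also has only 1 residual degree of freedom. The labels do not say that a number marks a shared batch. The replicate differences of the 2 groups correlated at 0.193 across genes, and whether libraries of the same number share a batch was not tested. TPM keeps no depth, so counting error could not be given for any level.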

Other observations

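MHC class II genes, which interferon-gamma switches on through CIITA, were mostly low in both groups. HLA-DQA1 was the highest of the list, at up to 7.15 TPM in sh-NC. CIITA was at 0.101 and 0.113 TPM in sh-PURB and at 0.200 and 0.132 TPM in sh-NC. Of 10 class II genes 4 were tested, all 4 lay below 0, and 0 were called by limma (unadjusted p under 0.05 for 0 higher and 1 lower). The 1 lower gene was HLA-DPB1, which passed the filter on low values through sh-NC alone, so its direction was favoured by the filter. HLA-DQA1 was at 2.82 and 5.57 TPM in sh-PURB and at 6.50 and 7.15 TPM in sh-NC. HLA-DPB1 was at 0.367 and 0.480 TPM in sh-PURB and at 1.13 TPM in both sh-NC libraries. HLA-DPA1 was at 1.02 and 1.47 TPM in sh-PURB and at 1.86 and 1.38 TPM in sh-NC, with overlapping groups. The invariant chain CD74 was at 0.0376 and 0.0837 TPM in sh-PURB and at 0.378 and 0.284 TPM in sh-NC, named after its values were seen.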
